A study of Cavia porcellus with 13 samples.

Results

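The genes described here are mast cell and basophil effector genes: the receptor subunits, granule enzymes, lipid mediator genes and a transcription factor by which these cells are usually recognised. The members were all rows of the deposited table whose symbol, without regard to case, was 1 of 10 names (HDC, CPA3, MS4A2, CMA1, CSF2RB, PTGDR2, FCER1A, FCER1G, GATA2 and HPGDS). Of those 10 names, 9 had a row among the 26855 genes of the table; FCER1A was not analysed here. The 9 were HDC (ENSCPOG00000027120), CPA3 (ENSCPOG00000001479), MS4A2 (ENSCPOG00000035892), Cma1 (ENSCPOG00000012404), Csf2rb (ENSCPOG00000021633), Ptgdr2 (ENSCPOG00000002210), FCER1G (ENSCPOG00000038638), GATA2 (ENSCPOG00000009802) and HPGDS (ENSCPOG00000026746), spelled as the table has them.

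The study asked how guinea pig skin responds to ticks in animals with different histories of exposure. RNA of 13 skin samples (libraries) was sequenced, each labelled day 4 after a tick bite, the label being carried by unbitten skin too. Saliva immune skin (3 libraries) was bitten and carries that label with no word on how immunity was raised. First exposure skin (3 libraries) was bitten and is labelled as a first exposure. Skin after 3 bites (2 libraries) and after 2 bites (2 libraries) came from animals exposed repeatedly to ticks, and naive skin (3 libraries) had no bite. Strain, age and sex were not given in the labels, nor was it said that libraries came from separate animals. The p-values therefore speak of the spread among libraries, part of which may be technical. The library titles begin with CK1 (saliva immune, first exposure, naive replicates 1 and 2) or EF19-5 (3 bites, 2 bites, naive replicate 3). These prefixes were taken as 2 experiments, and groups were compared within each of them.

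Mast cells reside in the skin and basophils circulate in the blood. Both carry the high-affinity IgE receptor, and antigen that cross-links its IgE makes them release histamine, granule proteases and lipid mediators. Basophils gathering at the bite are a known part of acquired resistance to ticks in guinea pigs. Several of these genes are also used by other cells: FCER1G and Csf2rb by myeloid cells at large, Ptgdr2 by eosinophils and some T cells, GATA2 by endothelial cells and HPGDS by macrophages and dendritic cells.

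Levels are given as TPM, the share of a library's transcripts that a gene takes after scaling for its length, and the read depth behind each value is unknown. Most of the 9 genes were low: HDC lay under 1 TPM in 7 of the 13 libraries, Cma1 and Ptgdr2 in 6 each, GATA2 in 8, CPA3 in 2 and Csf2rb in 1. MS4A2, FCER1G and HPGDS reached 1 TPM in every library, and 0 TPM was listed once, for Cma1 in naive replicate 2. All 9 passed the filter for testing (at least 1 TPM in at least 2 libraries), though HDC, Cma1, Ptgdr2 and GATA2 reached 1 TPM in bitten libraries alone. Skeletal muscle markers (8 of 10 listed genes in the table) took 0.302% to 5.04% of a bitten library, and 1.36% to 9.25% of a naive one, with 9.25% in naive replicate 2. Markers of skin epithelium and dermis were abundant throughout, at 1.57% to 5.47% of bitten and 1.11% to 3.29% of naive libraries. In whole skin, fewer cells of a type and less RNA per cell cannot be told apart.

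Across all bitten libraries set against the naive ones, all 9 genes had a higher mean on the log2(TPM + 1) scale, as did 64.6% of all genes, and none passed the test across the table. The median log2 difference of the 9 was 0.90, from 0.20 for HPGDS to 1.39 for Csf2rb, against a median of 0.10 over all 14979 genes tested. HDC averaged 1.59 ± 1.31 TPM in bitten skin (SD, n = 10) and 0.252 ± 0.0180 in naive skin (n = 3), CPA3 2.96 ± 2.11 TPM in bitten and 0.937 ± 0.725 TPM in naive skin, and Csf2rb 6.32 ± 6.07 TPM in bitten and 1.24 ± 0.807 TPM in naive skin. In these 3 genes every bitten library lay above the naive libraries of its own experiment, for CPA3 in EF19-5 by little (1.78 TPM in 3 bites replicate 2 and 1.73 in naive replicate 3). No overlap in this direction was seen in 3.09% of all tested genes.

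limma (log2 scale, experiment as a term) called 0 of the 9 genes at an adjusted p under 0.05, where it called 0.0401% of all genes, and the smallest adjusted p among the 9 was 0.152, for Csf2rb (log2 difference 1.39, SE 0.40). HDC, Cma1, Ptgdr2 and GATA2 passed the filter through bitten libraries alone, and the members were chosen with earlier results of these data known. Counts of the 9 genes, here and in the comparisons below, are therefore descriptions and not independent support. At an unadjusted p under 0.05, 6 of the 9 were higher (HDC, CPA3, Cma1, Csf2rb, Ptgdr2 and FCER1G), against 11.2% of all genes. Leaving out naive replicate 2, the library with the most muscle transcripts, left 3 of the 9 at that threshold and 3.16% of all genes, and turned HPGDS to -0.13. With the muscle level as a covariate 1 of the 9 and 3.15% of all genes were left there, with a median of -0.09 over all genes. The muscle markers themselves were lower in bitten skin in 7 of 8 tested genes (median -1.78). Muscle level and bite thus overlap, and a fit with this covariate cannot separate them, here or in the comparisons with naive skin below.

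**Figure D1:**
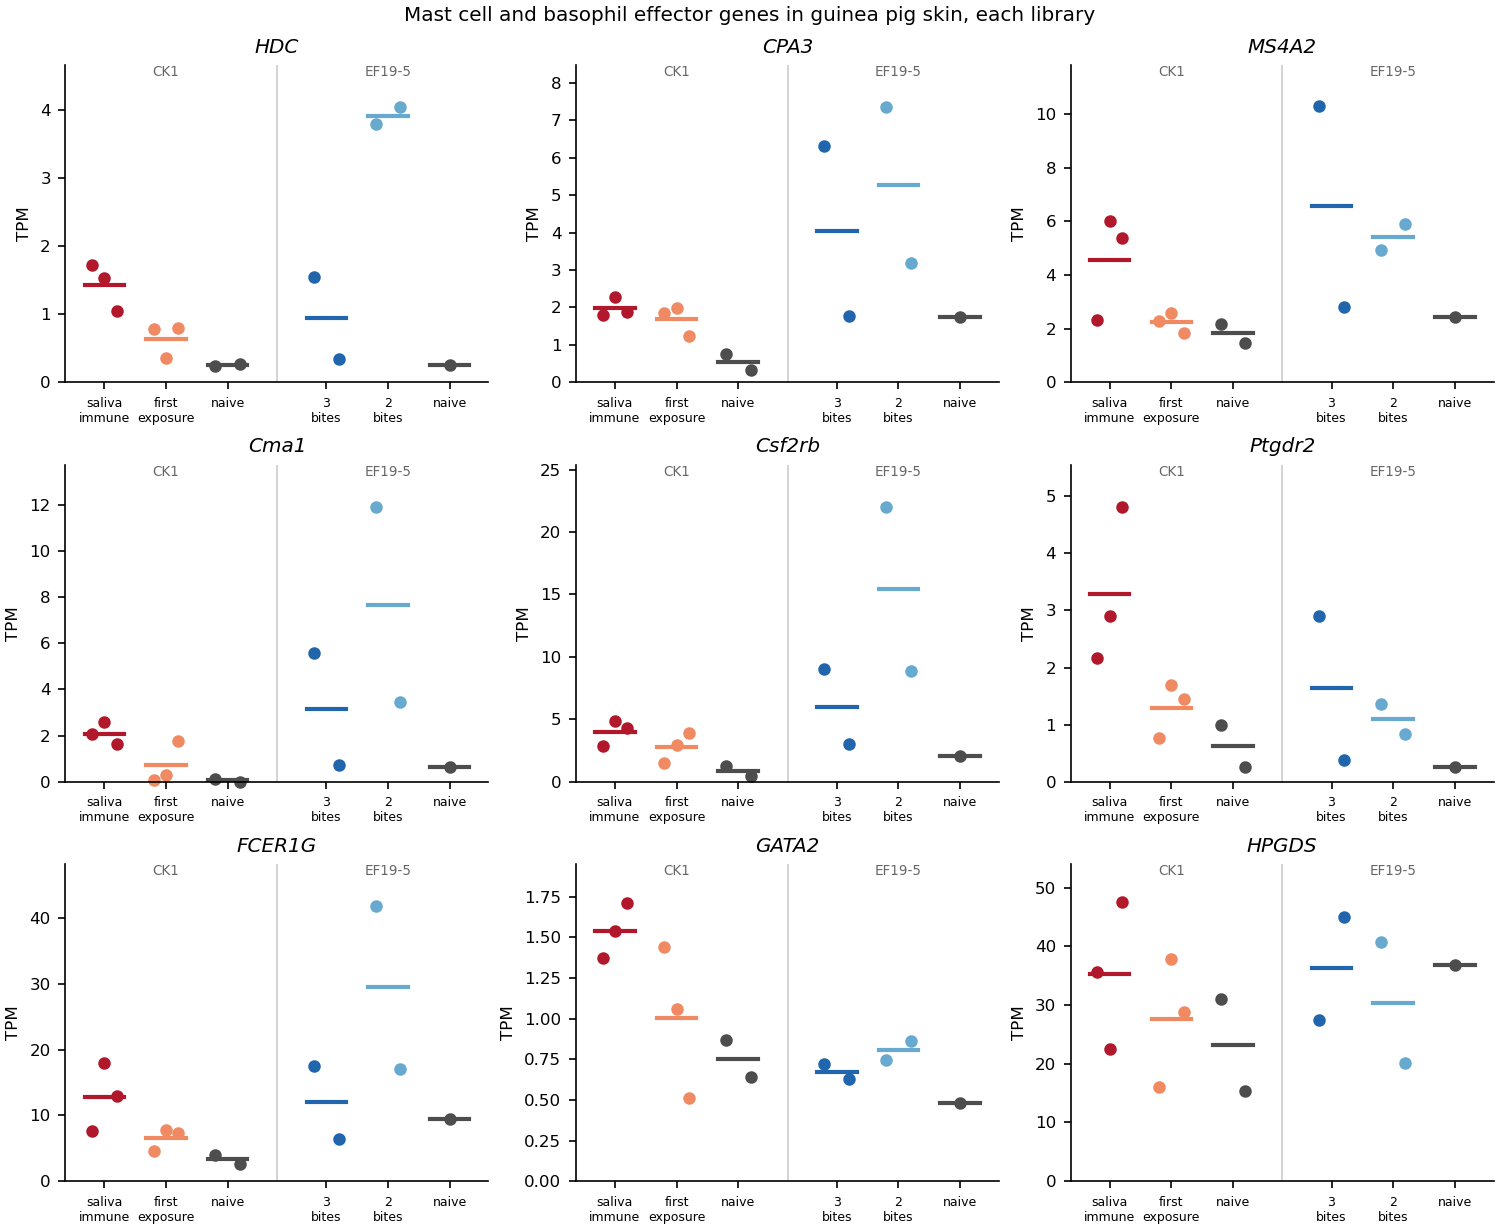
TPM of the 9 genes in each library (points) with the mean of each group (bars), CK1 groups left of the line and EF19-5 groups right of it; each panel has its own scale. HDC lay between 0.236 and 0.272 TPM in the naive libraries and at 3.79 and 4.04 in the 2 bites libraries, while HPGDS overlapped between bitten and naive skin.

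The IgE receptor was represented by MS4A2, its beta chain, which amplifies the signal, and FCER1G, the gamma chain, which carries the signal and also serves other Fc receptors of myeloid cells. In CK1, MS4A2 stood at 2.31, 6.01 and 5.36 TPM in saliva immune skin, at 2.28, 2.57 and 1.84 in first exposure skin, and at 2.17 and 1.46 in naive skin. The 3 saliva immune libraries lay above both naive ones, replicate 1 by little, while first exposure and naive libraries overlapped. In EF19-5, MS4A2 stood at 10.3 and 2.82 TPM after 3 bites, at 4.92 and 5.90 after 2 bites, and at 2.44 in naive skin. The 3 bites libraries thus lay on either side of the 2 bites ones. FCER1G stood at 7.65, 18.0 and 12.9 TPM in saliva immune skin, at 4.58, 7.75 and 7.36 in first exposure skin and at 3.98 and 2.62 in naive skin of CK1, and at 17.5 and 6.46 after 3 bites, 41.9 and 17.1 after 2 bites and 9.50 in EF19-5 naive skin. The naive library of EF19-5 thus held more FCER1G than any first exposure library of CK1.

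The granule proteases were CPA3, the carboxypeptidase stored with heparin in mast cell granules, and Cma1, the chymase of mast cells. CPA3 stood at 1.79, 2.27 and 1.88 TPM in saliva immune skin, at 1.86, 1.97 and 1.23 in first exposure skin and at 0.761 and 0.317 in naive skin of CK1. Both bitten groups lay above naive skin and overlapped each other, with means of 1.98 ± 0.258 in saliva immune and 1.69 ± 0.396 in first exposure skin (SD, n = 3 each). After 3 bites CPA3 stood at 6.30 and 1.78 TPM and after 2 bites at 7.35 and 3.18, against 1.73 in the naive library. Cma1 stood at 2.06, 2.57 and 1.62 TPM in saliva immune skin, at 0.0832, 0.307 and 1.77 in first exposure skin, and at 0.115 and 0 in CK1 naive skin. Saliva immune libraries were alike to within 1.59 times, while the first exposure libraries spanned 21.2 times, with replicate 3 inside the saliva immune range. Cma1 stood at 5.58 and 0.720 TPM after 3 bites, at 11.9 and 3.44 after 2 bites, and at 0.627 in the EF19-5 naive library.

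HDC encodes histidine decarboxylase, which makes histamine. Its level in the 3 naive libraries was even, at 0.236, 0.272 and 0.248 TPM. It stood at 1.72, 1.53 and 1.04 TPM in saliva immune and 0.777, 0.354 and 0.792 in first exposure skin, so that the 3 CK1 groups did not overlap. After 3 bites it stood at 1.54 and 0.338 TPM, and after 2 bites at 3.79 and 4.04. Both 2 bites libraries lay above every other library of the study for this gene, and the mean of the 2 bites group was 15.8 times that of the 1 naive library of EF19-5.

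Of the prostaglandin D2 pair, HPGDS makes the mediator in haematopoietic cells and Ptgdr2 is the receptor (CRTH2) that attracts basophils, eosinophils and type 2 T cells to it. HPGDS was the most abundant of the 9 and varied as much within groups as between them, with means of 35.3 ± 12.4 TPM in saliva immune, 27.6 ± 11.0 in first exposure (SD, n = 3 each) and 23.2 ± 11.1 in CK1 naive skin (n = 2). In EF19-5 its mean was 36.3 ± 12.4 TPM after 3 bites and 30.4 ± 14.5 after 2 bites (n = 2 each), against 36.8 in the naive library. Ptgdr2 stood at 2.17, 2.90 and 4.82 TPM in saliva immune skin, at 0.767, 1.69 and 1.44 in first exposure skin and at 0.999 and 0.259 in naive skin of CK1. For this receptor the saliva immune libraries lay above all other CK1 libraries, and first exposure and naive skin overlapped. It stood at 2.90 and 0.380 TPM after 3 bites and 1.36 and 0.835 after 2 bites, against 0.249 in EF19-5 naive skin.

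Csf2rb is the signalling chain shared by the receptors for IL-3, IL-5 and GM-CSF, and GATA2 is a transcription factor that mast cells and basophils need to develop. Csf2rb stood at 2.83, 4.83 and 4.26 TPM in saliva immune skin, at 1.47, 2.94 and 3.86 in first exposure skin and at 1.24 and 0.437 in naive skin of CK1. Bitten and naive libraries did not overlap, and the 2 bitten groups did. It stood at 9.02 and 3.02 TPM after 3 bites and at 22.0 and 8.89 after 2 bites, against 2.05 in the EF19-5 naive library. GATA2 was low throughout, at 1.37, 1.54 and 1.71 TPM in saliva immune skin, at 1.44, 1.06 and 0.512 in first exposure skin and at 0.867 and 0.640 in naive skin of CK1, and between 0.479 and 0.864 in all 5 EF19-5 libraries. Its saliva immune libraries lay above the naive ones, and the first exposure libraries spanned both.

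Saliva immune skin was next compared with CK1 naive skin. All 9 genes were higher, as were 68.1% of all genes, with a median log2 difference of 0.97 against 0.14 over all genes. The largest differences were those of FCER1G (1.63, SE 0.49), Cma1 (1.53, SE 0.61), Csf2rb (1.45, SE 0.48) and Ptgdr2 (1.39, SE 0.44). HDC differed by 0.94 (SE 0.29), CPA3 by 0.97 (SE 0.41), MS4A2 by 0.92 (SE 0.44) and GATA2 by 0.54 (SE 0.24). In 8 of the 9, all but HPGDS, the saliva immune libraries lay above both naive libraries, which held for 18.5% of all genes. limma called none of the 9 (smallest adjusted p = 0.305, FCER1G) and 0.00668% of all genes. At an unadjusted p under 0.05, with the same limits on the count as above, it placed 7 of the 9 higher against 9.55% of all genes. Without naive replicate 2 it placed 1 of the 9 there against 2.34% of all genes, the CK1 naive skin then being replicate 1 alone. Quantile normalization placed 4 of the 9 there against 5.91%, and the muscle covariate 4 of the 9 against 5.84%. Monocyte and macrophage markers differed by a median of 1.48 in the same comparison, and their part in the result was not tested.

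First exposure skin held smaller differences from the same naive libraries, which both comparisons share. All 9 genes were higher, as were 64.5% of all genes, with a median of 0.51 against 0.14 over all genes, led by Csf2rb (1.01, SE 0.48), CPA3 (0.81, SE 0.41) and FCER1G (0.81, SE 0.49). HDC, CPA3, Csf2rb and FCER1G did not overlap with naive skin, 4 of the 9, where 21.9% of all genes did not. limma called 0 of the 9 (smallest adjusted p = 0.386), against 0.0334% of all genes. It placed 0 of the 9 higher at an unadjusted p under 0.05, against 9.15% of all genes. With the CK1 libraries only it placed 2 of the 9 there, against 8.11%. Monocyte and macrophage markers were higher in 9 of 9 tested genes (median 0.50) and neutrophil markers in 4 of 4 (median 0.70), and their part in the result was not tested.

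Saliva immune and first exposure skin, both bitten, were also compared directly. All 9 genes had the higher mean in saliva immune skin, as did 54.4% of all genes, with a median log2 difference of 0.57 against 0.02 over all genes. The differences were 0.96 for Cma1 (SE 0.55), 0.88 for Ptgdr2 (SE 0.40), 0.83 for FCER1G (SE 0.44), 0.72 for MS4A2 (SE 0.40) and 0.57 for HDC (SE 0.26). CPA3 differed by 0.16 (SE 0.37). The groups did not overlap for HDC and Ptgdr2, 2 of the 9, against 5.41% of all genes. limma called none of the 9 and no gene of the table (0%), each of the 9 having an adjusted p of 1. At an unadjusted p under 0.05 it placed 0 of the 9 higher, against 1.8% of all genes, HDC and Ptgdr2 being nearest at 0.0536 and 0.0516. That count depended on the libraries that enter the shared spread. With the CK1 libraries only it was 5 of the 9, against 2.8% of all genes. It was 3 of the 9 without saliva immune replicate 1 (1.28%), 3 bites replicate 1 (2.41%) or 3 bites replicate 2 (2.42%). Under the other alternatives it was 0 to 2 of the 9. Markers of monocytes and macrophages were higher in 9 of 9 tested genes (median 0.49), and their part in the result was not tested.

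**Figure D2:**
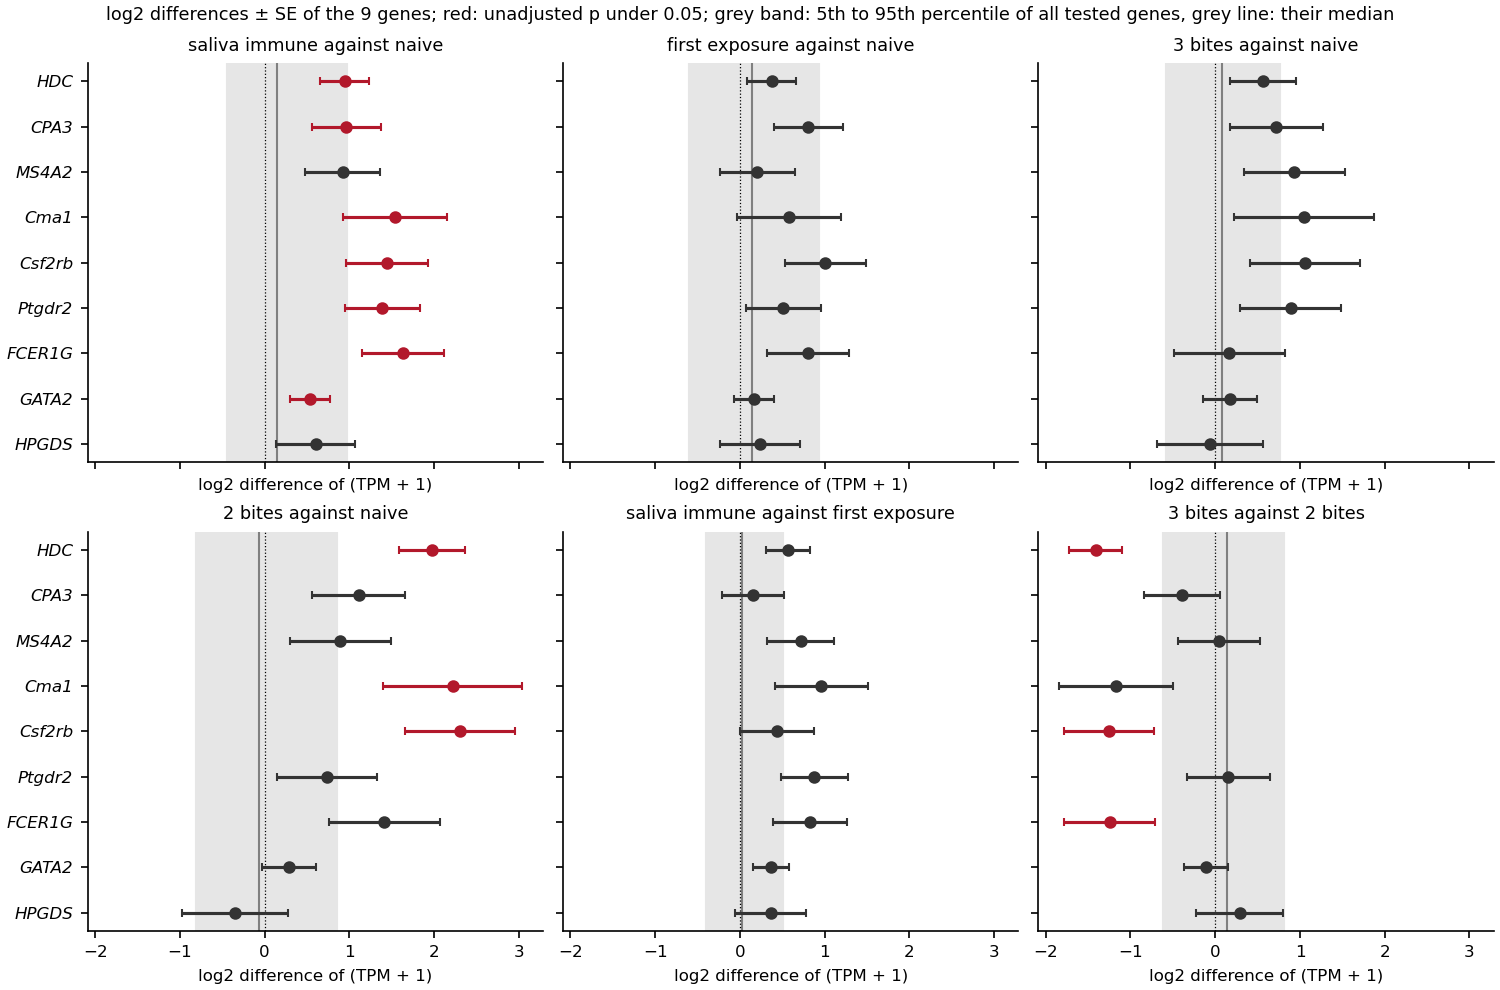
log2 difference of (TPM + 1) with its SE for each gene and comparison, the grey band spanning the 5th to 95th percentile of all tested genes and the grey line their median; red points have an unadjusted p under 0.05. All 9 points lie right of 0 for saliva immune and first exposure against naive, and HDC lies at 1.98 for 2 bites against naive and at -1.41 for 3 bites against 2 bites.

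In EF19-5 the reference was a single naive library, whose spread was taken to be that of the other groups. After 3 bites, 8 of the 9 genes were higher than in that library and HPGDS was at -0.06, where 60.6% of all genes were higher, with a median of 0.72 against 0.08 over all genes. Csf2rb (1.06, SE 0.65), Cma1 (1.05, SE 0.82) and MS4A2 (0.94, SE 0.60) differed most. These rested on replicate 1: the median of the 9 was 0.14 without 3 bites replicate 1 and 1.42 without 3 bites replicate 2. Both 3 bites libraries lay above the naive one for 7 of the 9, against 41.1% of all genes. limma called none of the 9 (adjusted p = 1 for each), against 0.00668% of all genes, and placed 0 of the 9 higher at an unadjusted p under 0.05, against 1.65%. Without 3 bites replicate 2 it placed 6 of the 9 there, against 1.92% of all genes, the 3 bites group then being 1 library whose spread was taken from the others. Of the monocyte and macrophage markers 8 of 9 tested genes were higher (median 0.305), and their part in the result was not tested.

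After 2 bites, 8 of the 9 genes were higher and HPGDS was at -0.35, where 42.3% of all genes were higher, with a median of 1.11 against -0.06 over all genes. Csf2rb differed by 2.31 (SE 0.65), Cma1 by 2.22 (SE 0.82), HDC by 1.98 (SE 0.39), FCER1G by 1.41 (SE 0.65) and CPA3 by 1.11 (SE 0.55). HDC had the 14th smallest p of the 14979 genes (unadjusted p = 0.000468 in limma), with an adjusted p of 0.501. That rank is a description: it rests on 2 libraries against 1, in a gene that passed the filter through bitten libraries alone. limma called none of the 9, against 0.0134% of all genes, and at an unadjusted p under 0.05 it placed 3 of the 9 higher, against 2.7%. Both 2 bites libraries lay above the naive library for 8 of the 9, against 28.6% of all genes. When the experiment was not a term, all 3 naive libraries served as reference, 2 of them from CK1. Bites and experiment cannot be told apart in that fit. In it HDC (limma adjusted p = 0.0212) and Csf2rb (adjusted p = 0.0394) passed, 2 of the 9. The same fit called 1.7% of all genes and placed 11.2% higher at an unadjusted p under 0.05. HDC also passed with the muscle level as a covariate (log2 difference 2.71, adjusted p = 0.0407), in a fit that called 3.63% of all genes. The count at an unadjusted p under 0.05 was 5 of the 9 without 3 bites replicate 1 (3.08% of all genes), 3 bites replicate 2 (3.11%) or 2 bites replicate 2 (4.66%), and 2 of the 9 without 2 bites replicate 1 (1.14%). Monocyte and macrophage markers were higher in 9 of 9 tested genes (median 1.23) and neutrophil markers differed by a median of 1.38, and their part in the result was not tested.

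Set against 2 bites, 3 bites skin had 6 of the 9 genes lower, as were 34.9% of all genes, with a median of -0.39 against 0.13 over all genes. HDC differed by -1.41 (SE 0.32), Csf2rb by -1.25 (SE 0.53), FCER1G by -1.25 (SE 0.53), Cma1 by -1.17 (SE 0.67) and CPA3 by -0.39 (SE 0.45), while MS4A2 (0.04, SE 0.49) and Ptgdr2 (0.16, SE 0.49) were close to 0. The groups did not overlap for HDC and GATA2, 2 of the 9, against 11.5% of all genes. limma called none of the 9 and 0% of all genes (HDC unadjusted p = 0.00122, adjusted p = 0.331), and placed 3 of the 9 lower at an unadjusted p under 0.05, against 2.66% of all genes. The muscle markers were higher after 3 bites in 8 of 8 tested genes (median 0.65), so muscle level and group overlap here too. With the muscle level as a covariate HDC passed in limma (-1.68, adjusted p = 0.0154), in a fit that called 15.3% of all genes. That fit placed 29.3% higher and 4.03% lower at an unadjusted p under 0.05. Without 3 bites replicate 1 the count lower at that threshold was 5 of the 9 (4.88% of all genes), and it was 1 of the 9 without 3 bites replicate 2 (1.37%) or 2 bites replicate 1 (1.26%). It was also 1 of the 9 without first exposure replicate 2 (2.28%), a library outside the comparison that enters the shared estimate of the spread. The median of the 9 was -1.09 without 3 bites replicate 1 and -0.07 without 3 bites replicate 2, and it was -0.16 without 2 bites replicate 1 and -0.89 without 2 bites replicate 2. Monocyte and macrophage markers were lower in 8 of 9 tested genes (median -1.03) and T cell markers in 4 of 4 (median -0.62), and their part in the result was not tested.

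The 2 experiments could be compared for their bitten against naive differences. HDC differed by 1.27 (SE 0.36) in EF19-5 and 0.66 (SE 0.26) in CK1, Csf2rb by 1.68 (SE 0.59) in EF19-5 and 1.23 (SE 0.43) in CK1, and CPA3 by 0.92 (SE 0.50) in EF19-5 and 0.89 (SE 0.37) in CK1. FCER1G differed by 0.79 (SE 0.60) in EF19-5 and 1.22 (SE 0.44) in CK1, and HPGDS by -0.20 (SE 0.57) in EF19-5 and 0.42 (SE 0.42) in CK1. Direct tests of the difference between experiments called none of the 9 in limma (smallest unadjusted p = 0.195, for HDC, and adjusted p = 0.999 for each). They called 0 of all 14979 genes, so the absence of calls is not a result about these 9.

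In a ratio of 2 genes of the same library, the share that muscle transcripts take of that library cancels. Cma1 per CPA3 was 1.16, 1.13 and 0.861 in saliva immune skin, at 0.0447, 0.156 and 1.43 in first exposure skin and at 0.151 and 0 in naive skin of CK1. It was 0.887 and 0.404 after 3 bites and 1.62 and 1.08 after 2 bites, against 0.362 in EF19-5 naive skin. Chymase transcripts were thus about as abundant as CPA3 transcripts in the saliva immune and 2 bites libraries and in first exposure replicate 3. They were scarcer than CPA3 in the other first exposure and the CK1 naive libraries, where Cma1 stood at 0 to 0.307 TPM. At such levels, with the read depth unknown, the low ratios are imprecise. HDC per CPA3 ranged from 0.552 to 0.962 in saliva immune, 0.180 to 0.643 in first exposure and 0.310 to 0.856 in naive skin of CK1, and was 0.245 and 0.190 after 3 bites, 0.515 and 1.27 after 2 bites and 0.143 in EF19-5 naive skin.

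PTPRC, the CD45 antigen of all leukocytes, was itself at 5.86 ± 2.75 TPM in bitten (SD, n = 10) and 2.27 ± 1.04 in naive skin (n = 3), a log2 difference of 0.99 (SE 0.26, limma adjusted p = 0.13). CPA3 per PTPRC was 0.240 to 0.693 in the 10 bitten libraries and 0.288, 0.290 and 0.561 in the naive ones. HDC per PTPRC was 0.0699 to 0.650 in bitten and 0.0803 to 0.246 in naive libraries, and MS4A2 per PTPRC 0.358 to 1.36 in bitten and 0.790 to 1.33 in naive libraries. Relative to this leukocyte gene, bitten and naive libraries overlapped for HDC, CPA3 and MS4A2. The ratios of Csf2rb, which had the largest log2 difference of the 9 (1.39), and of FCER1G, Ptgdr2, GATA2 and HPGDS are not given here. Cma1 per PTPRC was 0.0310 to 1.02 in bitten and 0 to 0.203 in naive libraries, which overlapped too: it was 0.616, 0.583 and 0.240 in saliva immune skin, 0.0310, 0.0701 and 0.344 in first exposure skin, 0.605 and 0.149 after 3 bites and 0.555 and 1.02 after 2 bites.

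**Figure D3:**
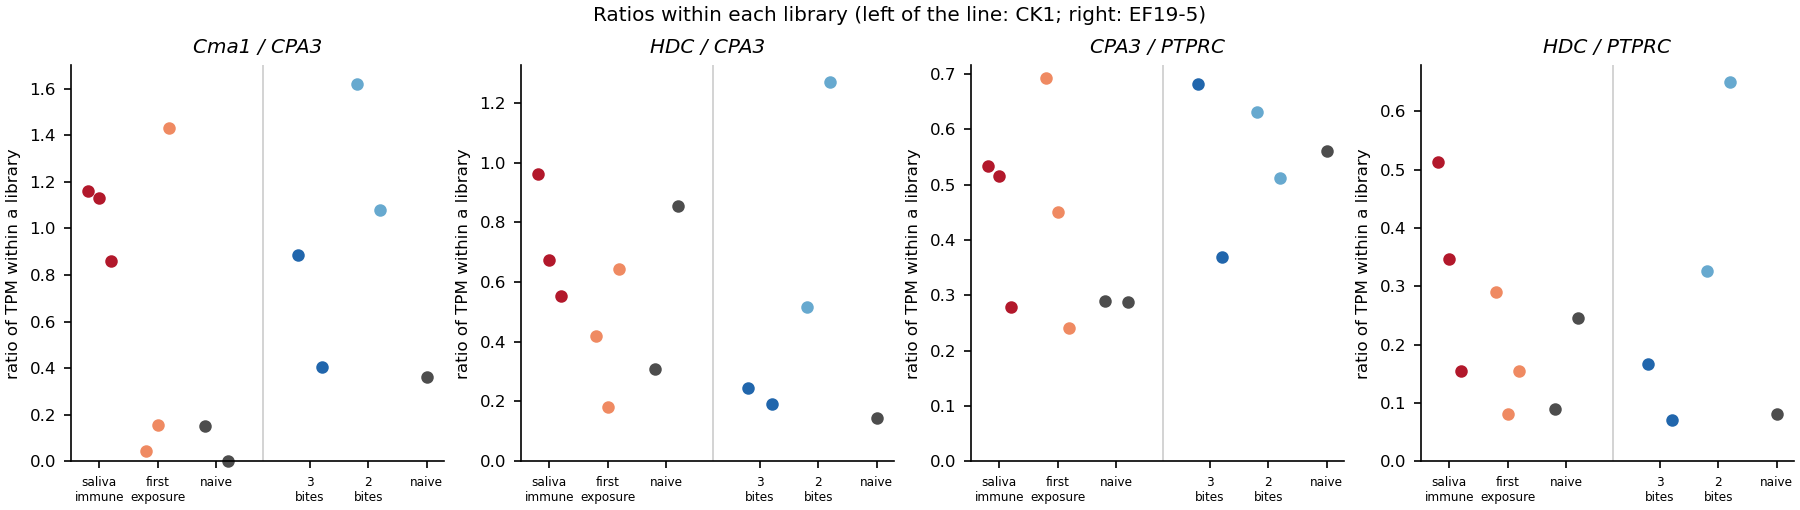
Ratio of TPM values of 2 genes in each library, CK1 groups left of the line and EF19-5 groups right of it. Cma1 per CPA3 lies between 0.861 and 1.62 in the saliva immune and 2 bites libraries and at 0 to 0.362 in the naive ones, while CPA3 per PTPRC overlaps between bitten and naive skin.

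Other genes of mast cells and basophils were read from lists, with means ± SD over the 10 bitten and 3 naive libraries. The counts of these lists stand beside 64.6% of all genes higher in bitten skin, 11.2% higher at an unadjusted p under 0.05 and a median of 0.10. Some listed genes, LAT and CCL17 among them, reached 1 TPM in bitten libraries alone, so these counts are descriptions. Of 25 further mast cell genes the table held 14, of which 9 were tested; 7 of those 9 were higher in bitten skin (median 0.38), with 1 at an unadjusted p under 0.05, a share near that of all genes, and 0 called. SRGN, the core protein of granule proteoglycans that other leukocytes make too, averaged 39.0 ± 26.4 TPM in bitten skin and 11.9 ± 5.85 TPM in naive skin (log2 difference 1.49, limma adjusted p = 0.117). RAB27B, a small GTPase of granule release, stood at 46.7 ± 17.2 TPM in bitten and 28.6 ± 10.6 TPM in naive skin, and KITLG, the ligand of the receptor KIT, at 23.0 ± 7.39 TPM in bitten and 16.2 ± 4.11 TPM in naive skin. KIT, which melanocytes carry too, ranged from 3.46 to 14.4 TPM in bitten and 5.74 to 8.29 in naive skin. The listed tryptase names (TPSAB1, TPSB2, TPSG1 and TPSD1) were not analysed here, and IL1RL1, the IL-33 receptor of mast cells, did not exceed 0.277 TPM in bitten or 0.0473 in naive libraries; KIT and IL1RL1 were chosen for mention after their values were seen. Of 10 further basophil genes 5 were in the table and 3 were tested, all 3 higher (median 0.29), with the platelet and basophil integrin ITGA2B at 2.90 ± 1.21 TPM in bitten and 1.43 ± 0.730 TPM in naive skin and RUNX1, a transcription factor of blood cells, at 12.3 ± 4.09 TPM in bitten and 9.45 ± 2.83 TPM in naive skin.

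The signalling genes below the IgE receptor lay higher in bitten skin in 10 of 11 tested members (median 0.54, against 0.10 and 64.6% higher over all genes), with 5 at an unadjusted p under 0.05, against 11.2% of all genes, and 0 called. LAT2, an adaptor of mast cells, B cells and monocytes, averaged 10.5 ± 5.84 TPM in bitten skin and 3.36 ± 1.98 TPM in naive skin (log2 difference 1.27, limma adjusted p = 0.13), and the kinase LYN averaged 12.2 ± 7.86 TPM in bitten and 5.01 ± 1.68 TPM in naive skin. LAT, the adaptor of T cells and mast cells, stood at 1.17 ± 0.609 TPM in bitten and 0.281 ± 0.124 TPM in naive skin. Of the histamine receptors and clearance genes 5 of 6 were higher (median 0.70, against 64.6% of all genes higher), with 3 at an unadjusted p under 0.05, against 11.2%, and 0 called; HRH3, the histamine H3 receptor, stood at -0.20. AOC1, the diamine oxidase that breaks histamine down, stood at 8.53 ± 2.52 TPM in bitten and 4.91 ± 1.82 TPM in naive skin (log2 difference 0.73, limma adjusted p = 0.117). HRH1, the histamine H1 receptor, averaged 3.61 ± 1.29 TPM in bitten skin and 1.84 ± 0.889 TPM in naive skin, and SLC22A3, an organic cation carrier that also moves histamine, averaged 156 ± 65.2 TPM in bitten and 92.0 ± 47.4 TPM in naive skin.

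Of the prostaglandin D2 and leukotriene genes 10 of 11 were higher (median 0.34, against 64.6% of all genes higher), with 2 at an unadjusted p under 0.05, against 11.2% of all genes, and 0 called; Ptgs2, the inducible cyclooxygenase, stood at -0.73 (SE 0.48). PTGDR, the other prostaglandin D2 receptor, averaged 3.74 ± 1.01 TPM in bitten skin and 1.72 ± 0.220 TPM in naive skin (log2 difference 0.76, limma adjusted p = 0.149). Lta4h, which makes leukotriene B4, stood at 74.7 ± 17.1 TPM in bitten and 55.4 ± 8.63 TPM in naive skin, and ALOX5, the first enzyme of leukotriene synthesis, at 11.8 ± 4.17 TPM in bitten and 7.74 ± 2.53 TPM in naive skin. Of 8 listed ligands, receptor chains and signalling genes of the Csf2rb receptors, 4 were in the table and 2 were tested. The names without a row were not analysed here. The kinase JAK2 stood at 21.1 ± 9.02 TPM in bitten and 17.8 ± 2.18 TPM in naive skin (log2 difference 0.10, SE 0.19). Its mean within CK1 was 15.6 TPM in bitten and 16.6 in naive skin. In EF19-5 it was 29.3 TPM in bitten skin and 20.3 in the naive library. Il5 was listed at 0 in all 13 libraries. Of the type 2 cytokines and alarmins 4 of 6 tested were higher, a share near the 64.6% of all genes, and 3 were higher at an unadjusted p under 0.05, against 11.2% (median 0.39). The epithelial cytokines IL25 (-0.51, SE 0.44) and IL33 (-0.09, SE 0.40) lay on the other side of 0. HRH3, Ptgs2, IL25 and IL33 were named after their values were seen, as the members of their lists that were lower. CCL17, a chemokine for type 2 T cells, ranged from 1.81 to 11.4 TPM in bitten libraries and was listed at 0 in all 3 naive ones (limma adjusted p = 0.0729). The receptor chains IL13RA1 (122 ± 57.1 TPM in bitten and 66.1 ± 30.2 TPM in naive skin) and IL4R (66.7 ± 15.9 TPM in bitten and 45.9 ± 14.9 TPM in naive skin) followed in order of p.

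Markers of other cells that use some of the 9 genes also differed between these libraries. Monocyte and macrophage markers summed to 126 to 612 TPM in bitten and 63.7 to 164 in naive libraries, with 9 of 9 tested genes higher, among them CD68, TYROBP and CD14. Neutrophil markers summed to 179 to 2240 TPM in bitten and 81.3 to 161 TPM in naive libraries (4 of 4 higher, S100A9 and Cxcr2 leading), and T cell markers to 8.85 to 29.9 TPM in bitten and 4.27 to 8.55 TPM in naive libraries (4 of 4 higher, CD3E, CD3G and LCK leading). Endothelial markers, which bear on GATA2, summed to 39.1 to 130 TPM in bitten and 39.9 to 84.7 in naive libraries (6 of 7 higher, with Vwf, TIE1 and CLDN5 leading). Dendritic and Langerhans cell markers summed to 20.3 to 47.6 TPM in bitten and 20.7 to 34.3 TPM in naive libraries (4 of 4 higher, led by CD83, CD207 and FLT3). Of all genes 64.6% were higher in bitten skin. Tested were 4 of 8 listed neutrophil and 4 of 10 listed T cell genes. CSF3R, ELANE and MARCO were listed at 0 in all 3 naive libraries, and CD3G and CCR7 stayed under 1 TPM there. These passed the filter through bitten libraries alone, so counts of these lists, here and in the comparisons above, are descriptions. No marker of these lists was called, and their part in the levels of FCER1G, Csf2rb, Ptgdr2, HPGDS and GATA2 was not tested. Eosinophil markers were at or near 0: 3 of 8 listed genes were in the table, EPX, the eosinophil peroxidase, was listed at 0 in all 13 libraries, and the sum of the 3 did not exceed 0.413 TPM in bitten skin and was 0 in naive skin. Melanocytes express KIT and MITF too; their markers summed to 6.25 to 184 TPM in bitten and 64.0 to 94.2 in naive libraries, with 4 of 5 tested genes lower (median -0.17).

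The 9 genes varied together to different degrees, described as Pearson's r of log2(TPM + 1) centred on each experiment over the 13 libraries, which share their groups and their tissue makeup. Csf2rb correlated with Cma1 and with FCER1G at 0.935 each, and MS4A2 with Ptgdr2 at 0.882. CPA3 correlated with HDC at 0.70 and with MS4A2 at 0.729, while HPGDS lay between -0.156 and 0.409 with the other 8. Without 2 bites replicate 1 and naive replicate 2 (11 libraries), these values were 0.909 and 0.866 for Csf2rb, 0.885 for MS4A2 with Ptgdr2, and 0.583 and 0.828 for CPA3, and HPGDS lay between -0.487 and 0.192. Among 11631 genes with a symbol and a mean of at least 1 TPM, the genes most like HDC were Fabp5 (0.939), MMP3 (0.908), RPS6KL1 (0.903) and MOCS1 (0.896), and those most like CPA3 were the macrophage receptor CD163 (0.939), PREX1 (0.937), Vwf (0.934) and P2RY14 (0.931). Those most like MS4A2 were GJA4 (0.887), ABCA6 (0.883), Ptgdr2 (0.882) and CYBB (0.881).

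**Figure D4:**
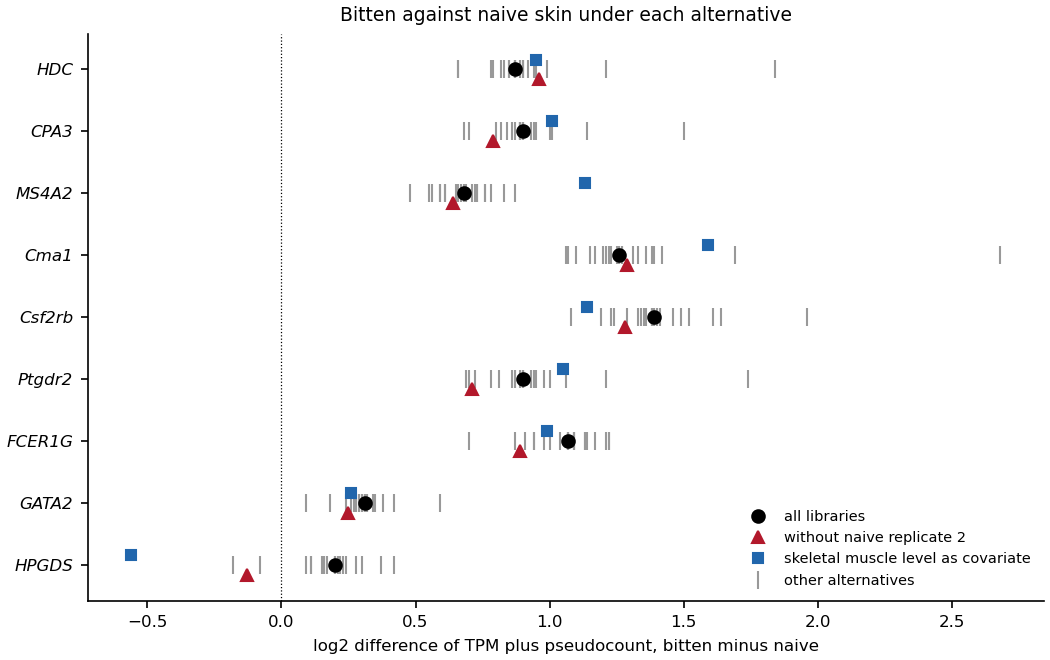
log2 difference of bitten minus naive skin for each gene with all libraries (black points), without naive replicate 2 (red triangles), with the skeletal muscle level as a covariate (blue squares) and under the other alternatives (grey ticks, including other pseudocounts). The values of 8 genes stay above 0 under each alternative run, and those of HPGDS lie between -0.56 and 0.42.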

How the data were processed

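Total RNA of guinea pig skin was isolated with a Qiagen RNeasy kit, and libraries followed Illumina's methods, as the labels' protocols state. The values are TPM as the authors deposited them, a single table in which every library sums to 1000000. The submitters' processing notes name Trimmomatic, StringTie and DESeq without versions; aligner, genome build and annotation: not given in the sources used here. TPM keep no depth, so precision is limited by the number of libraries, and a TPM is a share, so more muscle RNA lowers all other genes.

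Differences were tested on log2(TPM + 1), with a pseudocount of 1, in limma 3.58.1 (R 4.3.3), with an intensity trend, Benjamini-Hochberg adjustment over 14979 genes (at least 1 TPM in at least 2 libraries), two-sided, at an adjusted p under 0.05. This scale understates the change of low genes. Bitten against naive used a bitten term and the experiment; the remaining 6 comparisons are contrasts of a fit with all 5 groups plus the experiment. The fits were also run on simulated data, and the share of changes they recovered is not given here. The members, lists and alternatives were chosen with earlier results of these data known. Named genes of each further list are the up to 3 with at least 1 TPM in the higher group and the smallest p in bitten against naive; the likeness rule took 4 genes each for HDC, CPA3 and MS4A2. Median-of-ratios scaling moved the median of all genes from 0.10 to -0.01 in bitten against naive and from 0.14 to -0.01 in saliva immune against naive. No gene sequences or coordinates were used here. 0 columns of the table belonged to no sample.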

Additional observations from a re-analysis of the deposited data

Results flagged for a closer look

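Single libraries stood apart among the 10 bitten ones for 4 of the 9 genes. The measure was the gap to the nearest library as a share of the whole range (Dixon's 95% criterion), on TPM without logs. Chance flags about 1 in 20 groups where values are normally distributed, which TPM need not be. The 10 libraries come from 4 groups and 2 experiments. In 2 bites replicate 1, FCER1G stood at 41.9 TPM with the next library at 18.0, Csf2rb at 22.0 with the next at 9.02, and Cma1 at 11.9 with the next at 5.58. In 3 bites replicate 1, MS4A2 stood at 10.3 TPM with the next library at 6.01. The same 2 bites library held the highest sum of monocyte and macrophage markers (612 TPM) and of T cell markers (29.9 TPM), whose part in these values was not tested. No group of the study had 4 or more libraries, so single groups were not examined in this way.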

How the results depend on the processing

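No paired analysis was possible because the labels number the libraries without tying any of one group to those of another. limma called 0 of the 9 genes in each of the 7 comparisons, and still 0 in each fit that left out 1 library (lowest 0, highest 0). Array weights called 1 gene between saliva immune and first exposure skin (HDC, 0.70, adjusted p = 0.0169), in a fit that called 2174 genes in all (14.5%). Leaving out the experiment term called 2 in 2 bites against naive, with a median of 1.67 and 254 genes called in all, and the muscle covariate called 1 there and 1 in 3 bites against 2 bites, in fits that called 543 and 2299 genes in all.

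A pseudocount of 0.1 moved the median of the 9 to 1.5 in bitten against naive skin, to 1.00 in first exposure against naive skin and to 1.87 in saliva immune against naive skin. Without 1 library the median lay between 0.79 and 1.01 in bitten, 0.36 and 0.72 in first exposure, 0.91 and 1.26 in saliva immune, 0.14 and 1.42 in 3 bites and 0.79 and 1.61 in 2 bites against naive. It lay between 0.53 and 0.64 in saliva immune against first exposure and between -1.09 and -0.07 in 3 bites against 2 bites.

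Signs turned in differences that were not called, and the cause was not tested. HPGDS turned in bitten against naive with array weights (-0.08), the muscle covariate (-0.56) and both naive replicate 2 and 2 bites replicate 1 left out, an alternative chosen after seeing the data (-0.18), and lay between -0.13 and 0.42 without 1 library. HPGDS in first exposure against naive was 0.00 with no experiment term, -0.98 with the muscle covariate and -0.25 with both libraries left out, and between -0.25 and 0.72 without 1 library. HPGDS was -0.43 in saliva immune against naive with the muscle covariate. With no experiment term it was 0.42 in 3 bites and 0.13 in 2 bites against naive. Without 1 library HPGDS lay between -0.41 and 0.29 in 3 bites, -0.84 and 0.14 in 2 bites against naive and -0.20 and 0.78 in 3 bites against 2 bites. In 3 bites against 2 bites MS4A2 was -0.11 with median-of-ratios scaling, -0.10 with quantile normalization, -0.14 with the muscle covariate, -0.07 with both libraries left out, and between -0.74 and 0.83 without 1 library. There CPA3 was 0.11 with both left out and between -1.09 and 0.30 without 1 library, and Ptgdr2 between -0.59 and 0.90. FCER1G lay between -0.49 and 0.82 in 3 bites against naive without 1 library. Quantile normalization put MS4A2 at -0.02 and GATA2 at -0.08 in first exposure against naive, and array weights put Csf2rb at -0.01 in saliva immune against first exposure. Without naive replicate 3 no value can be given for 3 bites or 2 bites against naive.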
